A study of Mus musculus with 2 samples.

Results

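The insulin-like growth factor (IGF) system was described across the cell types of 2 mouse pancreas single-cell libraries. Its members were taken by symbol: the ligands Igf1 and Igf2, the receptor Igf1r and the binding proteins Igfbp2, Igfbp3, Igfbp4, Igfbp5, Igfbp6 and Igfbp7. These are 9 of the 31253 genes in the files, each present once. The study prepared single-cell suspensions from pancreas and captured transcripts on the BD Rhapsody system, which gives each cell a barcode and each captured transcript a unique molecular identifier (UMI). The library called CP came from an animal or animals labelled as treated with Cae, and the library called CP+EVs from Cae plus EVs. Both carry the condition label Cae-induced acute pancreatitis, while chronic pancreatitis and exercise-induced extracellular vesicles (EVs) are what the title names. Both libraries thus carry Cae, and no library without Cae was analysed here. The labels state no strain, age, dose, time or number of animals. With 1 library per treatment there is no replicate check, and every ratio below compares the 2 libraries, not the treatments.

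IGF1 and IGF2 are secreted peptides that signal through the receptor tyrosine kinase encoded by Igf1r, which drives growth and survival through the phosphoinositide 3-kinase and Akt pathway. IGF2 is also bound and cleared by the receptor encoded by Igf2r. The binding proteins hold the ligands in extracellular fluid and matrix, and proteases such as the one encoded by Pappa cut some of them and free the ligand. In connective tissue, fibroblasts are a known source of IGF1 and of several binding proteins, and macrophages are another known source of IGF1 in injured tissue.

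The CP library held 13507 barcodes and 51652425 UMIs, and the CP+EVs library 8845 barcodes and 38532775 UMIs. Cell classes were gated by marker UMIs among barcodes with at least 1000 UMIs, of which there were 8426 and 6849. The fibroblast gate held 1810 barcodes in CP and 1363 in CP+EVs, the mesothelial gate 83 and 103, the macrophage gate 2244 and 342, the T and NK gate 576 and 551, and the B gate 315 and 885. Other gates reached 50 barcodes in 1 library alone: neutrophil (2101) and dendritic (52) in CP, and acinar (2246), ductal (90) and endothelial (83) in CP+EVs. No barcode passed the mural or Schwann gate in either library, and the endocrine gate held 0 and 1. Only 8 barcodes of the CP library passed the acinar gate, so the main cell type of the labelled tissue was nearly absent there. Acinar enzyme markers made up 0.0278% of UMIs in CP and 6.28% in CP+EVs. The libraries shared 118 barcode sequences, and 0 of them fell in the same gate.

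For the binding protein genes whose levels differ most between fibroblasts of the libraries, the sequence before the RefSeq start is shown, 5′ to 3′ on the gene's strand, from the RefSeq promoter table on GRCm38.p6, the assembly known as mm10. Igfbp5 and Igfbp6 were both higher in CP+EVs and Igfbp4 was lower. The stretches shown are chr11:99041044-99041243 (plus strand) for Igfbp4, chr1:72874885-72875065 (minus strand) for Igfbp5 and chr15:102143986-102144185 (plus strand) for Igfbp6. None of them overlaps an exon of GENCODE vM21. For Igfbp5 the 19 bases next to the RefSeq start overlap such an exon and were cut, so 181 bases are shown and they end before the start. Capitals mark matches, on either strand, to 5 motifs searched: TATAAA, the core of the element bound by TBP, CCAAT, bound by NF-Y, GGGCGG, bound by Sp1, TGANTCA, bound by AP-1, and TTCNNNGAA, bound by STAT factors.
Igfbp4: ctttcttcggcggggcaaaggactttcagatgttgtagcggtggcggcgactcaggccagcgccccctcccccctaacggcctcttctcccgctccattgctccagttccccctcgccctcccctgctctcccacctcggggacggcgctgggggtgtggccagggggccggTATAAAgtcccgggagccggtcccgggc
Igfbp5: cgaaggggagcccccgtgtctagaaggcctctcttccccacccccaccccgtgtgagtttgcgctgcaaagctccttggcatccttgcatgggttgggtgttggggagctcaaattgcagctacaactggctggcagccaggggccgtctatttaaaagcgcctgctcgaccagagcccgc
Igfbp6: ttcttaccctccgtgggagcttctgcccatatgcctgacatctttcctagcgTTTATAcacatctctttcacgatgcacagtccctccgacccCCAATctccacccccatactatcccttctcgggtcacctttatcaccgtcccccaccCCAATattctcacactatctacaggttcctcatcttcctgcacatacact

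All 9 members matched the table, and motifs were searched in the 200 bases before each start, including the 19 bases not shown for Igfbp5. Igfbp4 holds TATAAA 28 bases before its start. Igfbp6 holds TATAAA on the opposite strand 148 bases before its start and CCAAT at 107 and 50 bases. Igfbp5 holds none of the 5. Over all 32851 windows of the same length, 9.96% hold TATAAA, 29.3% CCAAT, 31% GGGCGG, 5.48% TGANTCA and 5.49% TTCNNNGAA, so Igfbp5 and Igfbp6, which moved in the same direction, share no match from this short list.

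Igf1 (chromosome 10, 87858265 to 87937042, plus strand, mm10 by GENCODE vM21) encodes the ligand that acts locally and in blood. Its level in fibroblasts was 1839 UMIs per 1e6 UMIs of the gate (CPM) in CP (95% Poisson interval 1819 to 1859) and 489 CPM in CP+EVs (475 to 503). The fibroblast gate had the highest Igf1 level of all gates in both libraries, 35.1 and 37.9 times the higher of the T and NK and the B level of the same library. Lymphocytes serve here as the reference for free RNA, which enters every droplet or well. After each barcode was thinned to 1000 UMIs, 66.5% of CP fibroblasts (64.3 to 68.7, exact Clopper-Pearson) and 29.4% of CP+EVs fibroblasts (27.0 to 31.9) had an Igf1 UMI, against 4.17% and 0.907% of T and NK barcodes. Before thinning the fibroblast shares were 85.3% and 66.0%, at median depths of 5609 and 6398 UMIs in fibroblasts and 3124 and 3524 in T and NK barcodes. Mesothelial barcodes came next at 158 and 98.3 CPM. The fibroblast marker list, with 0 of 8 genes at 0, made up 2.77% and 1.46% of UMIs in the mesothelial gate. Its part in the mesothelial levels was not tested. All intervals cover counting error only.

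Macrophage Igf1 was near the lymphoid level in CP and above it in CP+EVs. The macrophage level was 53.0 CPM (49.4 to 56.8) in CP and 41.0 (33.4 to 49.8) in CP+EVs, while B barcodes of CP reached 52.3. In CP the macrophage and B levels could not be separated by their intervals. In CP+EVs the macrophage level was 3.18 times the lymphoid reference. Macrophages were split by marker sets, and each named subset met its own set alone. In CP+EVs, Igf1 was highest in barcodes rich in C1qa, C1qb and C1qc, at 123 CPM (93.9 to 158) over 100 barcodes. These genes encode the complement subunits that mark resident macrophages. Macrophages of that library marked by Ccr2, Ly6c2 and Chil3, genes of recently arrived monocytes, had 11.3 CPM (2.34 to 33.1), and those marked by Retnla and Lyz1 had 6.37 (2.07 to 14.9). The C1q-rich macrophages of CP had 66.6 CPM (54.3 to 80.9) over 217 barcodes, near that library's lymphoid reference. Before thinning, 28.6% of them had an Igf1 UMI, against 28.0% of the C1q-rich ones of CP+EVs. Barcodes that met more than 1 set had 45.0 CPM (38.9 to 51.9) in CP, over 532 barcodes. In CP+EVs they had 38.4 CPM (25.7 to 55.1) over 92 barcodes, with 28.4% of the gate's Igf1 UMIs. The highest macrophage value of CP, 96.6 CPM (81.5 to 114), came from 350 barcodes below the minimum share of each set (0.3%, 0.3% and 0.5% of UMIs). Their median depth was 1791 UMIs against 4794 in the C1q-rich ones. Acinar barcodes of CP+EVs carried 51.2 CPM of Igf1, also above the lymphoid level. In those barcodes the fibroblast marker list, with 0 of 8 genes at 0, summed to 3515 CPM, and its part in this level was not tested.

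Igf2 (chromosome 7, 142650766 to 142666816, minus strand), the fetal growth ligand, was not detected in any barcode of either library. A count of 0 allows up to 0.0583 CPM in CP and 0.0779 CPM in CP+EVs, taking 3 UMIs as the limit. The antisense gene Igf2os was also at 0. Igf1os, which overlaps Igf1 by 5117 bases on the other strand, had 2 UMIs in CP and 0 in CP+EVs. No source used here says whether counting used the strand.

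Igf1r (chromosome 7, 67952827 to 68233668, plus strand) had its highest level outside the stroma. In CP it was highest in neutrophils at 267 CPM (253 to 282), 3.87 times the lymphoid reference, and 21.9% of neutrophils thinned to 1000 UMIs had a UMI (20.1 to 23.7) against 5.03% of T and NK barcodes. The 19 neutrophils of CP+EVs gave 547 CPM (347 to 821) from 23 UMIs. In CP+EVs, where few neutrophils were captured, ductal barcodes were highest at 290 CPM (246 to 338), or 2.76 times the lymphoid reference. T and NK barcodes themselves had 69.1 CPM in CP and 105 in CP+EVs, while B barcodes had 28.2 and 5.21. The T and NK level, the higher of the lymphocyte levels in both libraries, was used as the reference. The T and NK and B intervals did not overlap, at 58.6 to 80.9 against 18.7 to 40.7 in CP and 92.1 to 119 against 3.43 to 7.58 in CP+EVs. How much of the T and NK level was free RNA was not tested. The fold values for Igf1r are thus folds over T and NK barcodes, not over free RNA. Fibroblasts stood at 51.5 CPM (48.2 to 54.9) and 122 CPM (115 to 129), mesothelial barcodes at 75.5 and 125, and macrophages at 35.4 and 32.2. In CP+EVs the mesothelial, fibroblast and T and NK levels followed each other with overlapping intervals.

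**Figure D1:**
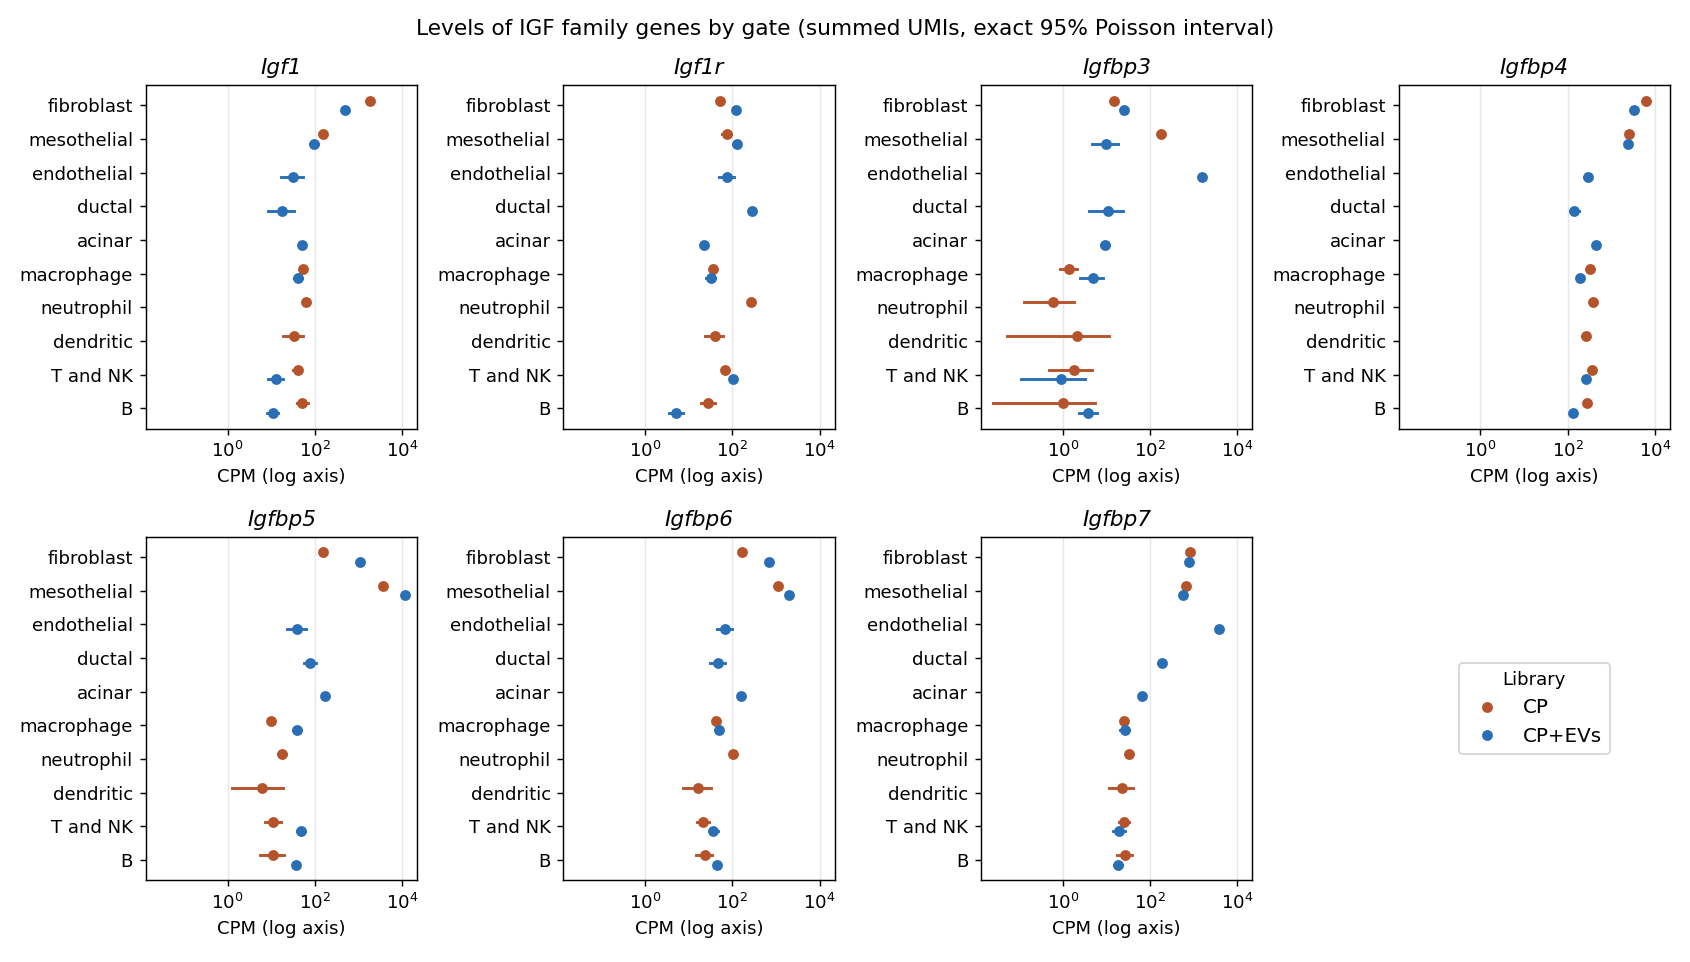
Levels of the 7 family genes with enough UMIs, in CPM on a log axis, for each gate with at least 50 barcodes (red CP, blue CP+EVs; bars are exact 95% Poisson intervals). Fibroblasts lead for Igf1 and Igfbp4, mesothelial barcodes for Igfbp5 and Igfbp6, and endothelial barcodes of CP+EVs for Igfbp3 (1575 CPM) and Igfbp7 (3892 CPM).

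Among the binding proteins, Igfbp4 (chromosome 11, 99041244 to 99054392, plus strand) was the one seen in nearly every fibroblast. It encodes a secreted inhibitor of IGF action that the Pappa protease cleaves. The level in fibroblasts was 6260 CPM (6223 to 6297) in CP and 3319 (3283 to 3355) in CP+EVs, and 94.5% and 91.6% of thinned fibroblasts had a UMI. Mesothelial barcodes had 2612 and 2401 CPM, and the part of the fibroblast transcripts in that gate was not tested. Igfbp4 UMIs were also found in lymphoid and myeloid barcodes, and how much of this was free RNA was not tested. Of thinned T and NK barcodes, 30.7% in CP and 16.7% in CP+EVs had a UMI. The neutrophil level of 380 CPM overlapped the T and NK level of 368 in its interval. The 5 lymphoid and myeloid gates of CP lay between 264 and 380 CPM. Igfbp4 passed 2 times the lymphoid reference in the fibroblast and mesothelial gates alone, in both libraries.

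Igfbp5 (chromosome 1, 72857932 to 72874884, minus strand), which binds extracellular matrix as well as IGFs, was above all a mesothelial transcript. The mesothelial level was 3661 CPM (3542 to 3782) in CP and 11508 (11300 to 11718) in CP+EVs, and 65.1% and 93.2% of thinned mesothelial barcodes had a UMI. Fibroblasts had 153 CPM (147 to 159) and 1089 (1068 to 1110). Acinar barcodes of CP+EVs had 171 CPM, 3.52 times the lymphoid reference, while T and NK barcodes had 11.2 and 48.5. The fibroblast marker list in those acinar barcodes summed to 3515 CPM, against 1064 in T and NK barcodes of CP+EVs. Its part in the acinar level was not tested.

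Igfbp6 (chromosome 15, 102144362 to 102149511, plus strand), a binding protein known for its preference for IGF2, followed the same order. It stood at 1126 CPM (1060 to 1194) and 2007 (1921 to 2096) in mesothelial barcodes and at 170 (164 to 176) and 703 (687 to 720) in fibroblasts. Neutrophils of CP had 105 CPM, 4.54 times the lymphoid reference. Its ligand of preference, Igf2, was at 0 in the same libraries.

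Igfbp7 (chromosome 5, 77349240 to 77408041, minus strand) encodes a secreted protein of vessel walls that binds IGFs weakly. Endothelial barcodes of CP+EVs had 3892 CPM (3701 to 4089), and 92.8% of them had a UMI after thinning. Fibroblasts followed at 827 CPM (814 to 841) in CP and 769 (752 to 787) in CP+EVs, then mesothelial barcodes at 673 and 560 and ductal barcodes of CP+EVs at 185. Macrophage, T and NK and B levels lay between 18.7 and 27.2 CPM.

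Igfbp3 (chromosome 11, 7206086 to 7213923, minus strand), the main carrier of IGFs in blood, was an endothelial transcript in CP+EVs at 1575 CPM (1455 to 1703), with a UMI in 65.1% of thinned endothelial barcodes. Fibroblasts had 14.6 and 25.1 CPM. In the mesothelial gate of CP it reached 177 CPM, but 96.5% of those 173 UMIs came from the tenth of barcodes with the most, and 16.9% of barcodes had any. The endothelial gate of CP held 2 barcodes, so these levels could not be compared between libraries.

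Igfbp2 (chromosome 1, 72824503 to 72852474, plus strand) lies tail to tail with Igfbp5, 5.457 kb apart, yet had 23 UMIs in CP and 7 in CP+EVs. In fibroblasts these were 15 and 3 UMIs, or 0.855 and 0.305 CPM. In mesothelial barcodes, where its neighbour was highest, they were 6 and 3 UMIs.

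**Figure D2:**
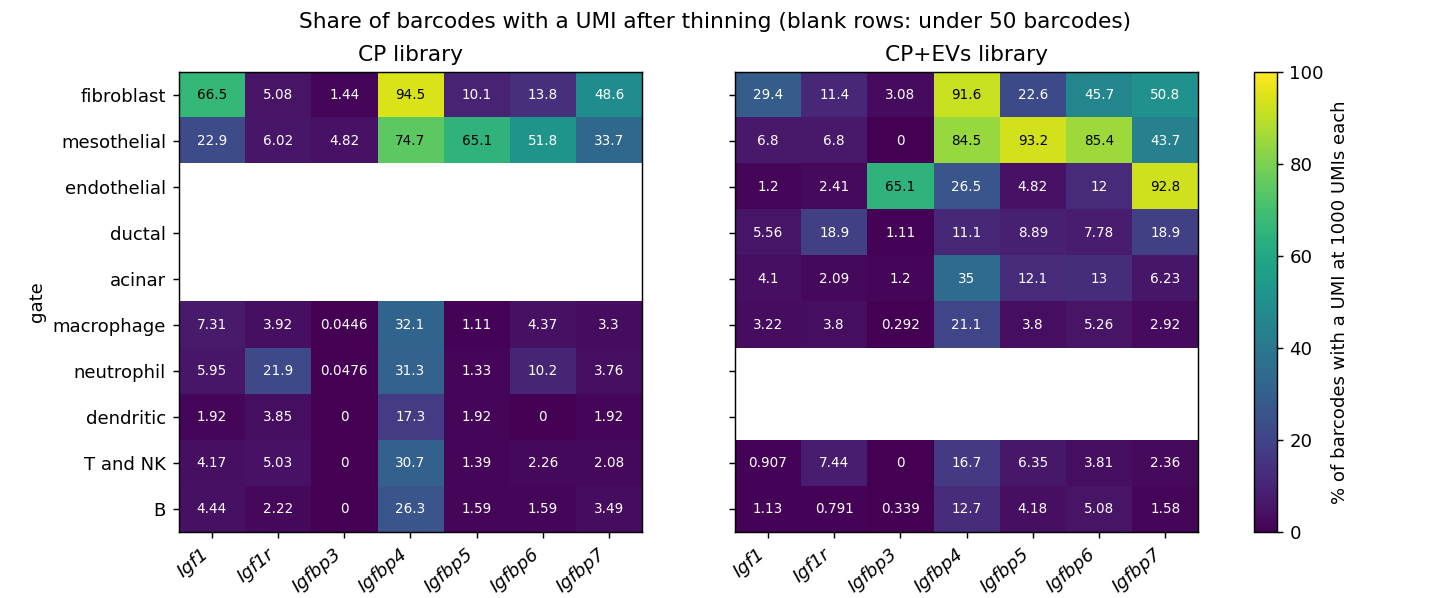
Percent of barcodes with at least 1 UMI of each gene after every barcode was thinned to 1000 UMIs, by gate, in CP (left) and CP+EVs (right); blank rows are gates under 50 barcodes. Igfbp4 was found in 94.5% and 91.6% of fibroblasts, Igf1 in 66.5% and 29.4%, and Igfbp5 in 65.1% and 93.2% of mesothelial barcodes.

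Over the 15 pairs of gate and library with at least 50 barcodes, several members had like profiles. Pearson correlations of log2(CPM + 10) are given as a description, since gates of a library share its depth and its free RNA. The highest were 0.96 between Igfbp5 and Igfbp6, 0.91 between Igf1 and Igfbp4, and 0.81 between Igfbp3 and Igfbp7. Next came Igfbp4 with Igfbp6 (0.80) and with Igfbp5 (0.73), so these were not separate pairs. Igf1r was at or below 0.34 with every other measured member. Among 4812 genes, Olfml3 was the closest to Igf1 (0.97), followed by Olfml2b and Cpxm1, Rcn3 to Igfbp4 (0.98), followed by Il33 and Gabra3, and Pls3 to Igfbp7 (0.98), followed by Dlc1 and Osmr. Igfbp3 was closest to Flt4 (0.96), Clec14a and Adgrf5, which are endothelial transcripts. Igfbp5 and Igfbp6 were each other's closest gene and shared Sulf1 as the second, with C2 and Sbsn as the third. The closest to Igf1r were Map1lc3b (0.87), Rnf11 and Arhgap5.

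Between the libraries, fibroblasts of CP+EVs had less Igf1 and Igfbp4 and more Igfbp5, Igfbp6 and Igf1r. Igf1 was 3.76-fold lower (3.65 to 3.88, exact interval of the ratio) and Igfbp4 1.89-fold lower (1.86 to 1.91). Igfbp5 was 7.13-fold higher (6.83 to 7.44), Igfbp6 4.14-fold (3.97 to 4.33), Igf1r 2.37-fold (2.17 to 2.59) and Igfbp3 1.72-fold (1.44 to 2.06). Thinned to 3000 UMIs, 23.7% of CP fibroblasts and 35.6% of CP+EVs fibroblasts had an Igfbp5 UMI. Of the 10701 Igfbp5 UMIs in CP+EVs fibroblasts, 7714 came from 171 of 1363 barcodes, those richest in the adventitial markers described below. Igfbp7 differed by a log2 ratio of -0.10. A gene was taken as measured if 1 library or both had 20 CPM or more and the sum of its UMIs was 20 or more, which 7 of the 9 members met in this gate. Of these, 3 (Igf1r, Igfbp5 and Igfbp6) were higher by 2-fold or more and 1 (Igf1) was lower by as much; with per-barcode means the log2 ratio of Igf1r was 0.86, below 2-fold. The same held for 5.27% (higher) and 6.82% (lower) of the 6792 genes measured in fibroblasts. The median log2 ratio was 0.78 over the 7 members and 0.01 over all measured genes. The Igfbp5 ratio was exceeded in size by 1.88% of measured genes, that of Igfbp6 by 3.28% and that of Igf1 by 3.90%.

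Several other measures moved with these ratios. The fibroblast marker list, with 0 of 8 genes at 0 in either library, made up 6.18% of fibroblast UMIs in CP and 3.69% in CP+EVs. Acinar markers, also with 0 of 8 at 0, made up 0.00762% and 0.896%, macrophage markers 0.0527% and 0.0169%, mesothelial markers 0.0159% and 0.00222%, neutrophil markers (0 of 7 at 0) 0.0912% and 0.00227%, and B markers (0 of 6 at 0) 0.00260% and 0.00762%. Their part in the ratios was not tested. When the total was taken without the genes of acinar secretion, mitochondria, haemoglobin and antibodies, the log2 ratio was -1.89 for Igf1 against -1.91, and 2.86 for Igfbp5 against 2.83. With the marker minimum doubled, which kept 1441 and 412 fibroblasts, the log2 ratio was -1.68 for Igf1 and 2.52 for Igfbp5. Igf1 and Igfbp5 also differed in the same directions in T and NK barcodes, 3.13-fold lower and 4.33-fold higher, at levels far below those of fibroblasts. There 1 member was at least 2-fold higher and 1 lower, beside 1.95% and 2.07% of all measured genes, and in B barcodes 1 was higher and 3 lower, beside 6.49% and 6.16%.

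**Figure D3:**
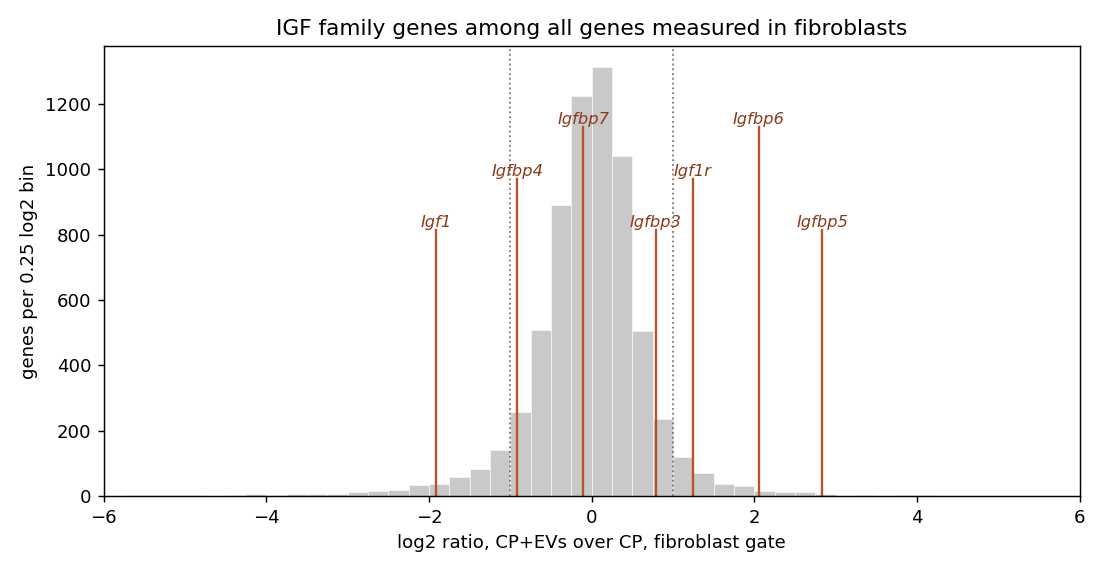
Log2 ratios (CP+EVs over CP) of the 6792 genes measured in fibroblasts (grey, genes per bin of 0.25), with lines at the family members and dotted lines at 2-fold. Igf1 (-1.91) lies in the lower tail and Igf1r (1.24), Igfbp6 (2.05) and Igfbp5 (2.83) in the upper tail, while Igfbp7 (-0.10) lies at the centre.

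In mesothelial barcodes Igfbp5 was also higher in CP+EVs, by a smaller ratio than in fibroblasts. It was 3.14-fold higher (3.03 to 3.26) and Igfbp6 1.78-fold (1.66 to 1.92), while Igfbp4 (log2 ratio -0.12), Igfbp7 (-0.26) and Igf1 (-0.68) differed by less than 2-fold. Igfbp3 was 18-fold lower (9.53 to 38.1). With the mean of each barcode's own CPM in place of the sum, its log2 ratio was -2.33 against -4.10. Of 7 measured members, 1 was at least 2-fold higher and 1 lower, beside 5.05% and 7.19% of 7269 genes.

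In macrophages, 1 of 6 measured members, Igfbp5, was at least 2-fold higher and 0 were lower, beside 5.38% and 6.77% of 6396 genes. Igfbp5 was 4.0-fold higher (3.07 to 5.19), from 9.96 to 39.8 CPM, and in both libraries its macrophage level was near that of T and NK barcodes (11.2 and 48.5). Igf1 had a log2 ratio of -0.36, which depended on the setting. With the marker minimum doubled its direction changed, to a log2 ratio of 0.63. With barcodes thinned to 1000 UMIs the direction stayed and the log2 ratio was -1.26. Igfbp4 was 1.67-fold lower (1.52 to 1.84), and Igf1r, Igfbp6 and Igfbp7 had log2 ratios of -0.13, 0.19 and 0.06.

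**Figure D4:**
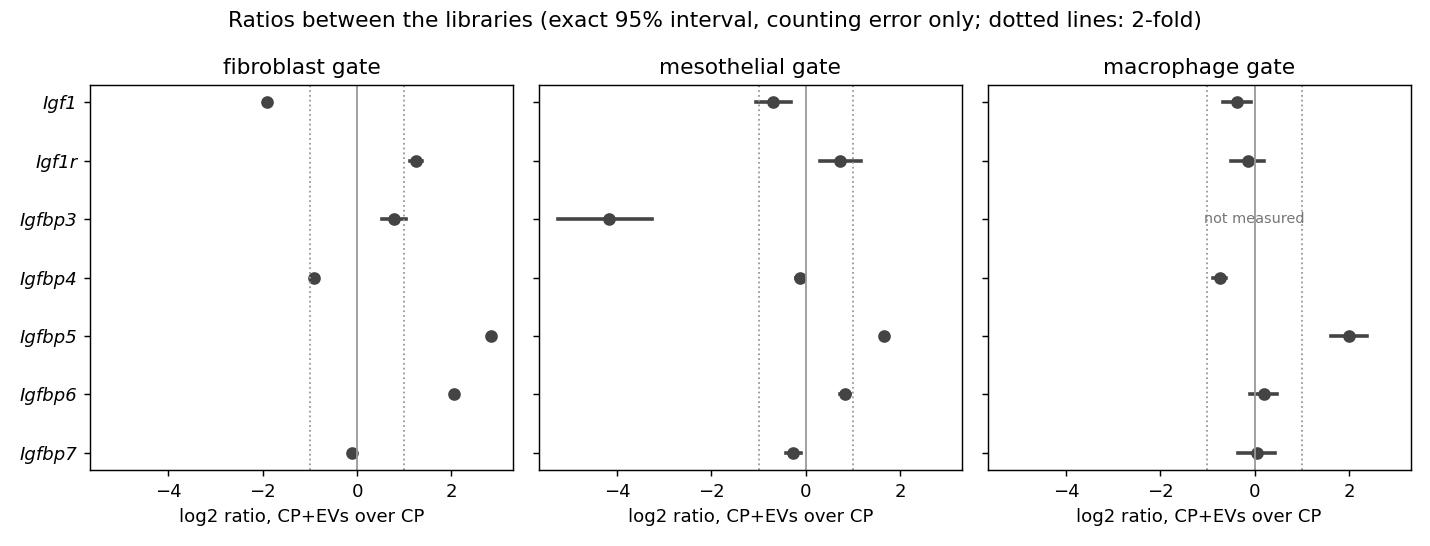
Log2 ratios of the measured family members between the libraries (CP+EVs over CP) in the fibroblast, mesothelial and macrophage gates; bars are exact 95% intervals for counting error and dotted lines mark 2-fold. Igfbp5 lies above 2-fold in all 3 gates, Igf1 is past 2-fold lower in fibroblasts alone, and Igfbp3 is far below it in mesothelial barcodes (9.53 to 38.1-fold lower).

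Within fibroblasts, the Igfbp5 difference lay almost wholly in barcodes rich in adventitial markers. These markers were Pi16, Dpp4, Sema3c and Cd55, genes of the fibroblasts found around vessels and in fascia, and no member was used. A set was met with at least 0.1% of a barcode's UMIs and at least 2 UMIs. The other set was the remodelling markers Tnc, Cthrc1 and Postn, and the 95 and 55 barcodes that met both were kept apart. Adventitial barcodes were 413 of 1810 fibroblasts in CP (22.8%) and 645 of 1363 in CP+EVs (47.3%). In them Igfbp5 was 195 CPM in CP and 1915 in CP+EVs, 9.81-fold higher (9.13 to 10.5), a subset ratio that pools barcodes of unequal marker share. In fibroblasts that met neither set, which can still hold marker UMIs, Igfbp5 was 129 and 139 CPM. The ratio was 1.08 (0.978 to 1.19), an interval that includes no difference. In CP+EVs, 90.4% of fibroblast Igfbp5 UMIs came from the adventitial barcodes, against 30.4% in CP. Mesothelial markers, of which 0 of 7 were at 0 over the fibroblast gate, were lower in the adventitial barcodes than in those with neither set, at 98.1 against 228 CPM in CP and 17.8 against 28.1 CPM in CP+EVs.

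Igf1 and Igfbp7 ran the other way along the same axis. Adventitial barcodes had less Igf1 than those with neither set, 1126 against 2128 CPM in CP and 262 against 786 in CP+EVs. They also had less Igfbp7, 727 against 868 CPM and 484 against 1137. Unlike Igfbp5, Igf1 was lower in CP+EVs in both subsets, 4.30-fold (4.05 to 4.58) in adventitial barcodes and 2.71-fold (2.61 to 2.81) in the rest. Igfbp6 was higher in both, 4.32-fold and 2.95-fold, and Igf1r was higher in both, 2.47-fold and 2.14-fold. For Igfbp7 the subsets differed in sign: its ratio was 0.666 (0.631 to 0.702) in adventitial barcodes and 1.31 (1.26 to 1.36) in the rest, beside a value near 1 over the whole gate. The CP+EVs levels were also weighted by each subset's share of fibroblast UMIs in CP, with the remodelling barcodes and those that met both sets included. The ratios were then 3.88-fold higher for Igfbp5, 3.40-fold higher for Igfbp6 and 2.89-fold lower for Igf1. The remodelling subset held 185 barcodes in CP and 18 in CP+EVs and was not compared on its own.

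Along the share of adventitial markers per barcode the change was not even. In CP, Igfbp5 was 94.0, 138, 127 and 112 CPM over the 4 steps below 0.2%, then 372 at 0.2 to 0.4% and 1199 at 0.4% and above. In CP+EVs it was 121, 166 and 114 CPM below 0.1%, then 256, 888 and 5285. In both libraries the high values thus lay in the top steps alone, and in CP the step at 0.2 to 0.4% held 137 barcodes. Single markers did not all give this direction in CP. There Igfbp5 was 150 CPM with a Dpp4 UMI and 163 without, with intervals that overlap. It was 166 and 139 CPM for Pi16, 167 and 128 for Sema3c, and 159 and 105 for Cd55. In CP+EVs it was higher with each marker, at 1586 against 120 CPM for Pi16 and 1314 against 319 for Dpp4. Depth differed between steps: in CP the median was 1459 UMIs at 0, 13231 under 0.05% and 3416 at the top step. In CP+EVs these medians were 2702, 6244 and 8074, and the part of depth was not tested. Igf1 was highest at the step under 0.05%, 2400 and 964 CPM, and lowest at the top step, 301 and 103 CPM. At matched steps the Igfbp5 gap between the libraries was smaller than over the whole subset, 112 against 256 CPM at 0.1 to 0.2% and 372 against 888 at 0.2 to 0.4%. The top step held 23 barcodes in CP and 171 in CP+EVs. At that step Igfbp5 still differed between the libraries, 1199 (1041 to 1374) against 5285 (5168 to 5404), with intervals that do not overlap.

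**Figure D5:**
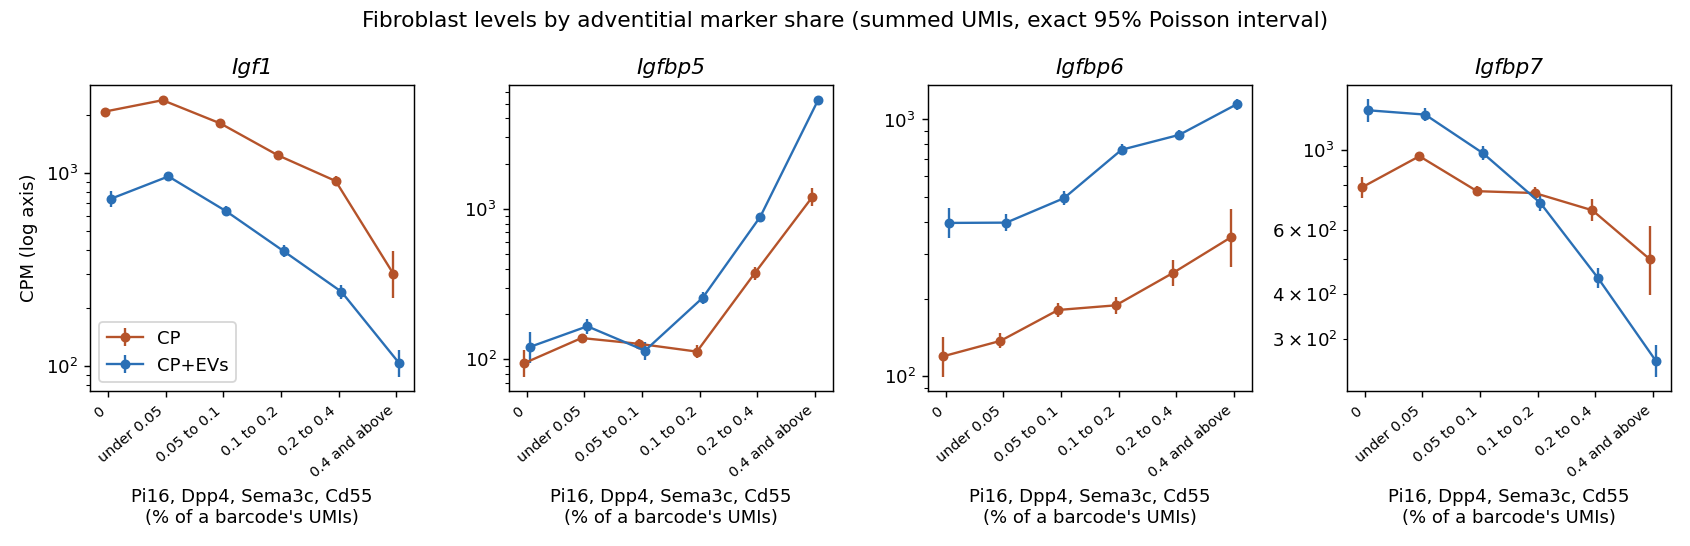
Fibroblast levels of Igf1, Igfbp5, Igfbp6 and Igfbp7 in CPM (log axis) against the percent of a barcode's UMIs from Pi16, Dpp4, Sema3c and Cd55 (red CP, blue CP+EVs; bars are exact 95% Poisson intervals). Igfbp5 is highest at the top step (1199 and 5285 CPM) and Igf1 lowest (301 and 103), and the Igfbp7 lines cross.

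Most single fibroblasts had UMIs of several members. Thinned to 3000 UMIs, 41.9% of 1079 CP fibroblasts had UMIs of 3 members and 38.3% of 4 members, and in CP+EVs 31.6% and 39.2% of 1111. In CP+EVs, Igf1 was found in 42.2% of fibroblasts with an Igfbp5 UMI and 58.3% of those without, and Igfbp6 in 84.6% and 71.6%. In CP the same pairs were close to even: Igf1 in 86.7% and 90.4%, and Igfbp6 in 37.9% and 37.8%.

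Other genes of the pathway were followed with a list of 41 receptors, proteases, carriers and signalling genes. In fibroblasts 29 were measured, of which 4 were at least 2-fold higher in CP+EVs and 0 lower, beside the 5.27% and 6.82% of all genes. The highest ratio was that of Stc2, 6.50-fold (5.31 to 8.0), from 7.01 to 45.6 CPM. It encodes stanniocalcin 2, an inhibitor of the Pappa protease. The other genes past 2-fold act downstream of the receptor: Foxo1 (2.64-fold) and Foxo3 (2.23-fold) encode transcription factors that Akt holds out of the nucleus, and Pik3r1 (2.55-fold) the regulatory subunit of phosphoinositide 3-kinase.

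Among genes that act upstream of the receptor, Pappa itself stood at 22.0 and 23.3 CPM and the growth hormone receptor gene Ghr at 61.3 and 63.9. The genes of other receptors, Igf2r and the insulin receptor gene Insr, stood at 197 and 161 and at 20.3 and 29.4 CPM. Each was within 2-fold. The related genes Pappa2 (66 and 3 UMIs, 12.3-fold lower, 4.04 to 61.3) and Stc1 (114 and 14 UMIs, 4.56-fold lower, 2.61 to 8.61) were below the 20 CPM minimum and so outside the counts; they were chosen after their values were seen. The carrier gene Igfals had 4 and 0 UMIs in fibroblasts and Igfbp1 had 0 and 1.

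In mesothelial barcodes 3 of 29 list genes were at least 2-fold higher, namely Igf2bp2 (3.07-fold), Socs2 (2.42-fold) and Foxo3 (2.04-fold), and 1 was lower, Pappa (5.92-fold, from 57 to 10 UMIs), beside 5.05% and 7.19% of all measured genes. These were named because their count was small, after their values were seen. In macrophages 1 of 24 was higher and 0 lower, beside 5.38% and 6.77%: Socs2, a feedback inhibitor of growth hormone signalling, was 3.46-fold higher (2.44 to 4.86), from 6.40 to 22.1 CPM. With doubled gate minima 0 list genes were higher there. The next in size there were Eif4ebp1 (log2 ratio -0.73), Pdpk1 (-0.52) and Igf2r (0.50). In T and NK barcodes 0 of 24 list genes passed 2-fold, beside 1.95% and 2.07%, and in B barcodes 0 were higher and 1 lower, beside 6.49% and 6.16%.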

How the data were processed

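The authors deposited, per library, a matrix of whole-number UMI counts of genes by barcodes, not normalized, and the submitters' processing notes name CASAVA 1.8, UMI-tools, Seurat and mm10. No source used here names the aligner or the filters applied before deposit; the fewest UMIs per barcode was 501 in both libraries. Barcodes with under 200 genes or over 25% mitochondrial UMIs were left out (98 in CP, 46 in CP+EVs). A gate needed 1000 UMIs, 3 different markers and a minimum share of UMIs from its marker list (2% for fibroblasts, 0.2% for mesothelial and 0.4% for macrophage barcodes), set from marker UMIs without reading any member. Barcodes passing gates of unrelated types, 361 and 223, were left out in place of a doublet caller, and 825 and 870 passed none. Barcodes passing both gates of a related pair, such as fibroblast and mesothelial, were kept in the gate they passed by more. Around the fibroblast minimum, 75 and 268 barcodes lay just inside and 168 and 158 just outside. UMIs were summed per gate and library and scaled to CPM, with exact Poisson and conditional intervals at 95%; 0.5 counts were added for log2 ratios. No test was run, since each treatment has 1 library. Ratios were tested on simulated data first. Shares were taken after thinning (seed 1). Members and lists were chosen with earlier results of these data known. Named genes were all members, up to 4 list genes with the largest log2 ratios in fibroblasts and in macrophages, Igf2r, Ghr, Pappa and Insr, and the 3 genes most like each member. Alternatives were gate minima, barcode filters, denominators, scaling, per-barcode means, mixed barcodes and thinning; 2 on depth were added after seeing the data. Python 3.11.15, numpy 2.4.6, scipy 1.17.1, pandas 2.3.3 and matplotlib 3.10.9 were used.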

Additional observations from a re-analysis of the deposited data

Results flagged for a closer look

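The Igfbp3 ratio between the libraries had opposite signs in 2 stromal gates. Its log2 ratio, CP+EVs over CP, was 0.78 in fibroblasts and -4.10 in mesothelial barcodes. The difference was not tested, with 1 library per treatment, and the mesothelial value rests on 173 UMIs of CP, 96.5% of them in the tenth of barcodes with the most, and 10 UMIs of CP+EVs.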

How the results depend on the processing

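No paired analysis was possible because each treatment has 1 library. In fibroblasts, 7 ratios under 11 other settings gave 77 values, of which 51 stayed within their counting interval and 0 moved by over 1.5-fold; 3 changed sign, all of Igfbp7 (log2 ratio 0.27 with doubled gate minima, 0.08 with per-barcode means, 0.14 after thinning). Of the fibroblast ratios, 3 values crossed 2-fold: Igf1r was 0.86 and Igfbp3 1.05 with per-barcode means, and Igfbp3 1.29 after thinning. Igf1 lay between -1.98 and -1.68 and Igfbp5 between 2.41 and 2.97. In mesothelial barcodes 6 of 77 values moved by over 1.5-fold, at most 3.41-fold; Igf1r there was -0.49 after thinning and Igf1 -1.72. Pathway genes at least 2-fold lower in fibroblasts went from 0 to 5 with no minimum of CPM, members lower in macrophages from 0 to 1 after thinning, and pathway genes higher in macrophages from 1 to 0 with doubled gate minima and to 8 with no minimum of CPM. The added settings, no minimum of UMIs and at least 5000 per barcode, gave -1.89 and -1.93 for Igf1 and 2.81 and 2.97 for Igfbp5 in fibroblasts. Doubled minima left 412 of 1363 fibroblasts and 167 of 342 macrophages in CP+EVs. Igf2 had 0 UMIs in both libraries and Igfbp2 had 23 in CP and 7 in CP+EVs, and the part of depth in this was not tested. Gates under 50 barcodes were limited by their number of barcodes. The 27 dendritic barcodes of CP+EVs, for example, had a median of 9724 UMIs.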
